A study of Caenorhabditis elegans with 36 samples.

Results

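The 5 hairpins cel-mir-63, cel-mir-64, cel-mir-65, cel-mir-66 and cel-mir-229 form the mir-64 and mir-229 family of Caenorhabditis elegans microRNAs. They were taken by name from the 250 hairpins of the deposited count table. All 5 were among the 193 hairpins with enough counts to be tested. The table came from small RNA sequencing of whole hermaphrodites of the wild-type strain N2. Worms had been given rotenone at 100 nM, an inhibitor of complex I of the mitochondrial respiratory chain, or DMSO at 0.1 percent, a solvent, each sampled at 6 hours and at 1, 2, 3 and 5 days. Worms given H2O at 0.1 percent were sampled at 1 and 5 days. Each of these 12 groups had 3 libraries. The labels for rotenone name no solvent, and the times are counted from treatment in the series title but given as ages for the samples. The labels name no transgene, mutation or sorted tissue, so each value is an average over a whole worm and, at the later times, over any embryos it carried. In such samples fewer cells of a type and less RNA per cell cannot be told apart.

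Most microRNAs of C. elegans are cut from a hairpin precursor into a mature strand that guides Argonaute proteins to messenger RNAs, chosen largely by the seed near its 5′ end. The mir-64 and mir-229 family is a nematode family, and loss of its clustered members has been linked to the survival of heat stress in C. elegans. In the Ensembl WBcel235 annotation, mir-229, mir-64, mir-65 and mir-66 follow each other in this order on the plus strand of chromosome III, within the protein-coding gene gcn-1, on its strand and outside its exons. gcn-1 encodes the worm counterpart of a yeast regulator of translation under amino acid shortage. mir-63 lies apart, on the minus strand of chromosome X and in no protein-coding gene. No source used here gives the build behind the deposited counts, and positions are therefore left out.

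The family was abundant. Its summed counts took between 6.43% ± 0.101 of all counts, in rotenone at 3 days, and 7.53% ± 0.277, in H2O at 5 days (SD, n = 3 libraries). By mean level mir-65 was the 11th and mir-64 the 14th of the 193 tested hairpins, mir-229 the 25th, mir-66 the 34th and mir-63 the 52nd. The lowest count of any member in any library was 4368 and the highest 462301, so counting error was small. For mir-63 it was not small beside the spread between libraries in every group. In DMSO at 5 days that spread (SD) was 0.874% of the mean for mir-63. Total counts ran from 4361246 to 14960062 per library. Every library at 5 days had fewer counts (at most 6737429) than every library at 1 day (at least 7360978). The part of depth in the changes with time was not tested. Levels are given below in CPM, counts scaled to a common library total with TMM factors, and a hairpin is compared with itself between groups. Whether the 3 libraries of each group represent separate cultures is not in the labels, so the p-values reflect nothing more than the variation among these libraries, which may be technical.

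Between the 12 groups the members differed little. The highest group mean was 1.55 times the lowest for mir-63, 1.52 times for mir-64, 1.44 times for mir-65, 1.46 times for mir-66 and 1.4 times for mir-229. The orders of the groups showed mostly time. mir-63 was highest in DMSO at 5 days, at 1203 ± 10.5 CPM, and lowest in DMSO at 6 hours, at 775.7 ± 26.4 CPM, and its 3 highest groups were those at 5 days. mir-64 and mir-65 were also highest in the 3 groups at 5 days, at 31310 ± 398 to 32480 ± 1880 CPM for mir-64 and 34760 ± 1020 to 36150 ± 1940 CPM for mir-65. Below these, each remaining pair of neighbours in the order overlapped for both hairpins. mir-66 was lowest in the groups at 6 hours, at 3063 ± 152 CPM with rotenone and 3289 ± 110 CPM with DMSO, and its other 10 group means lay between 3974 and 4464 CPM. mir-229 had another order, highest in rotenone at 1 day, at 13080 ± 200 CPM, and lowest in DMSO at 3 days, at 9361 ± 341 CPM, with the groups at 1 day high and those at 3 and 5 days low. Of the 11 pairs of neighbours in each order, 7 overlapped for mir-63, 10 for mir-64, 10 for mir-65, 9 for mir-66 and 9 for mir-229.

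**Figure D1:**
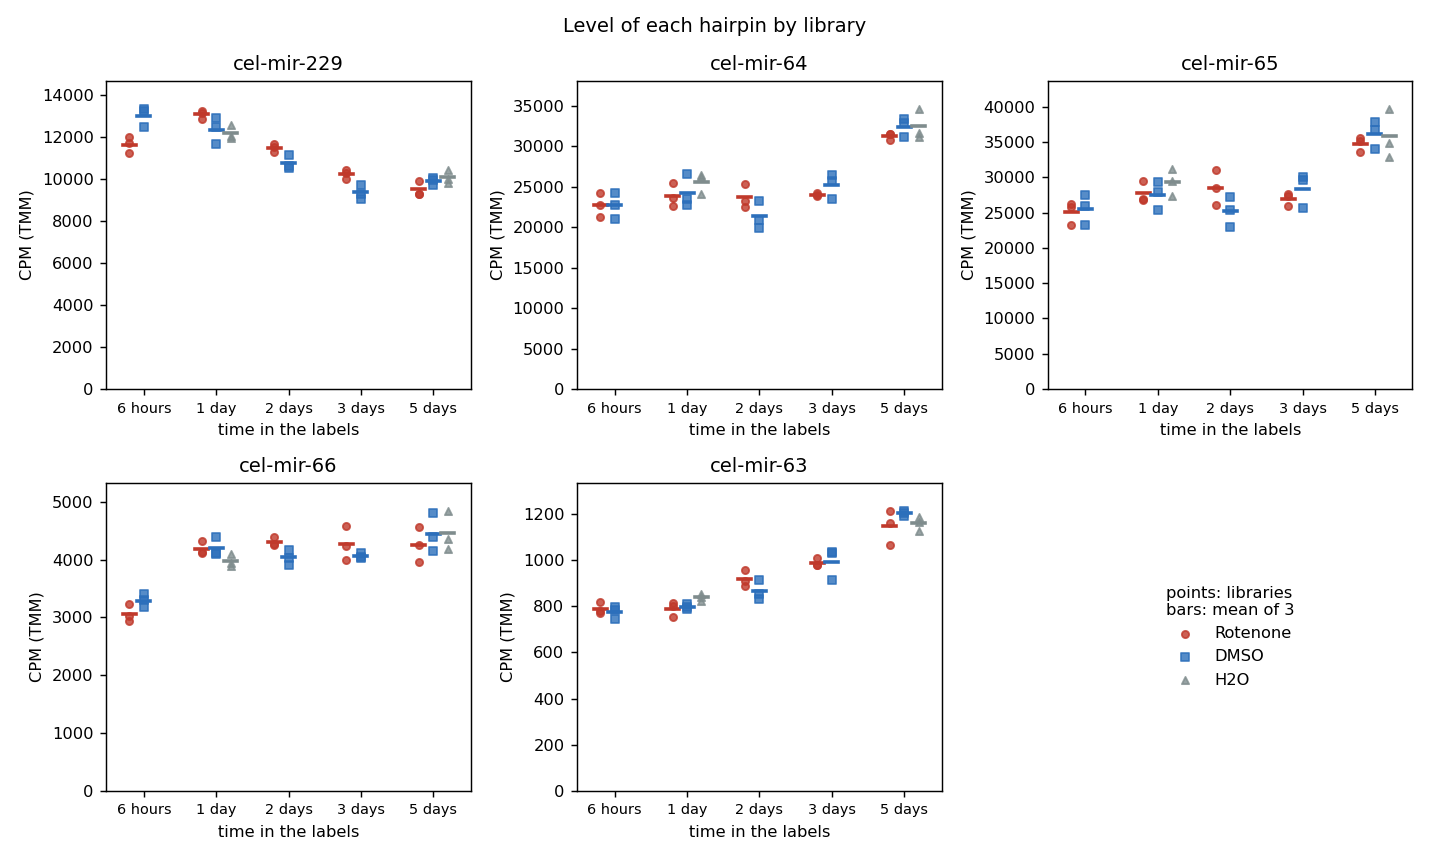
Level of each of the 5 hairpins in CPM (TMM scaled) in every library, by time, with rotenone, DMSO and H2O side by side and bars at the mean of 3 libraries. mir-229 was high at 6 hours and 1 day and low at 3 and 5 days, mir-64, mir-65 and mir-63 were highest at 5 days, and mir-66 stood apart at 6 hours, where its 6 libraries lay between 2939 and 3398 CPM.

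mir-64 and mir-65 are known to give near-identical mature strands. No source used here says how reads matching both were counted, which leaves the split between this pair uncertain. The pair summed to 66077 ± 1410 CPM in rotenone, 68588 ± 3110 CPM in DMSO and 68305 ± 5350 CPM in H2O at 5 days, against 51663 ± 2880 CPM in rotenone, 51826 ± 3890 CPM in DMSO and 54968 ± 3000 CPM in H2O at 1 day. The sum was higher at 5 days than at 1 day in every treatment, as were mir-64 and mir-65 each by themselves.

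Rotenone against DMSO was the question of the series. At 6 hours 1 of the 5 members passed the threshold, an adjusted p below 0.05 (quasi-likelihood test of edgeR, Benjamini-Hochberg adjustment over all 193 hairpins), where 11.9% of all hairpins were called. This was mir-229, the first hairpin of the cluster. It had 11690, 11240 and 11980 CPM in the rotenone libraries, against 13240, 12470 and 13330 CPM in the DMSO libraries. All 3 rotenone libraries lay below all 3 DMSO libraries, and 21.8% of all hairpins had groups that did not overlap at this time. The log2 fold change was -0.16 ± 0.048 (SE), with an adjusted p of 0.0255. The call was lost with DESeq2's size factors (log2 fold change -0.13, adjusted p = 0.116), with total counts (-0.08, adjusted p = 0.47), without the filter on low counts (-0.06, adjusted p = 0.715) and when only these 2 groups were fitted (-0.08, adjusted p = 0.602), all in edgeR. It was also lost without DMSO library 1 or 3 or rotenone library 1 or 2, with log2 fold changes of -0.16 to -0.14. DESeq2 kept the call, as did edgeR with the replicate number as a block. At the same time the glial marker mir-228 had 35300 ± 1090 CPM with rotenone and 43470 ± 1760 CPM with DMSO, and the 8 hairpins of the mir-35 family, markers of oocytes and embryos, summed to 19350 ± 4030 CPM with rotenone and 23470 ± 1410 CPM with DMSO. mir-228 was not called (edgeR adjusted p = 0.0541). Of the mir-35 family 5 of 8 hairpins were called lower, and the sums overlapped between the groups. No marker of muscle, intestine or neurons was called. The part of the markers in the result was not tested.

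At 1 day, where 16.6% of all hairpins were called, 0 of 5 members were called by edgeR or DESeq2 and 0 had an unadjusted p below 0.05. mir-229 had 12860, 13150 and 13240 CPM with rotenone, against 12880, 11680 and 12480 CPM with DMSO, and the groups overlapped. The log2 fold changes of the other 4 members lay between -0.02 and 0.01, with 95% intervals that lay within -0.159 and 0.168. At 2 days, where 42.5% of all hairpins were called, 0 of 5 members were called by edgeR, 2 had an unadjusted p below 0.05, and DESeq2 called 1. All 5 estimates were above 0 at this time. mir-65 had 31020, 26110 and 28430 CPM with rotenone, against 27250, 22980 and 25440 CPM with DMSO, and the groups overlapped (log2 fold change 0.18 ± 0.077, edgeR adjusted p = 0.0618). mir-64 had 25350, 22490 and 23220 CPM with rotenone, against 23250, 19890 and 20950 CPM with DMSO (0.15 ± 0.067, edgeR adjusted p = 0.0707). The groups of mir-64 overlapped as well. With the replicate number as a block in edgeR, mir-64 (0.15, adjusted p = 0.0256) and mir-65 (0.18, adjusted p = 0.0284) were both called. Without DMSO library 1 both mir-64 and mir-65 passed, at 0.21 and 0.24, and without rotenone library 2 mir-65 passed, at 0.24.

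mir-229 was the hairpin that DESeq2 called at 2 days, at an adjusted p of 0.038. It had 11540, 11280 and 11660 CPM with rotenone, against 10520, 10610 and 11140 CPM with DMSO, with no overlap (edgeR log2 fold change 0.10 ± 0.048, adjusted p = 0.107). Of all hairpins 46.1% did not overlap at 2 days, and mir-229 was 1 of 2 members among them. The second was mir-66, with 4275, 4395 and 4251 CPM under rotenone and 4033, 4172 and 3912 CPM under DMSO (0.09 ± 0.060, edgeR adjusted p = 0.228). The 4 neuronal markers, lsy-6 and the hairpins mir-124, mir-790 and mir-791, summed to 158.3 ± 0.886 CPM with rotenone and 229.5 ± 37.4 CPM with DMSO at 2 days, and mir-228 stood at 23790 ± 3110 CPM with rotenone and 33070 ± 5840 CPM with DMSO. Their part in these values was not tested.

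At 3 days 0 of 5 members were called by edgeR or DESeq2, 1 had an unadjusted p below 0.05, and 12.4% of all hairpins were called. That member was mir-229, with 9992, 10280 and 10440 CPM in rotenone, against 9056, 9730 and 9297 CPM in DMSO. The groups did not overlap, as for 28% of all hairpins at 3 days, and rotenone was the higher, opposite to 6 hours (log2 fold change 0.13 ± 0.048, edgeR adjusted p = 0.0715). At 5 days 0 of 5 members were called by either tool, 0 had an unadjusted p below 0.05, and 1.04% of all hairpins were called. All 5 estimates then lay between -0.07 and -0.05, and every group overlapped.

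**Figure D2:**
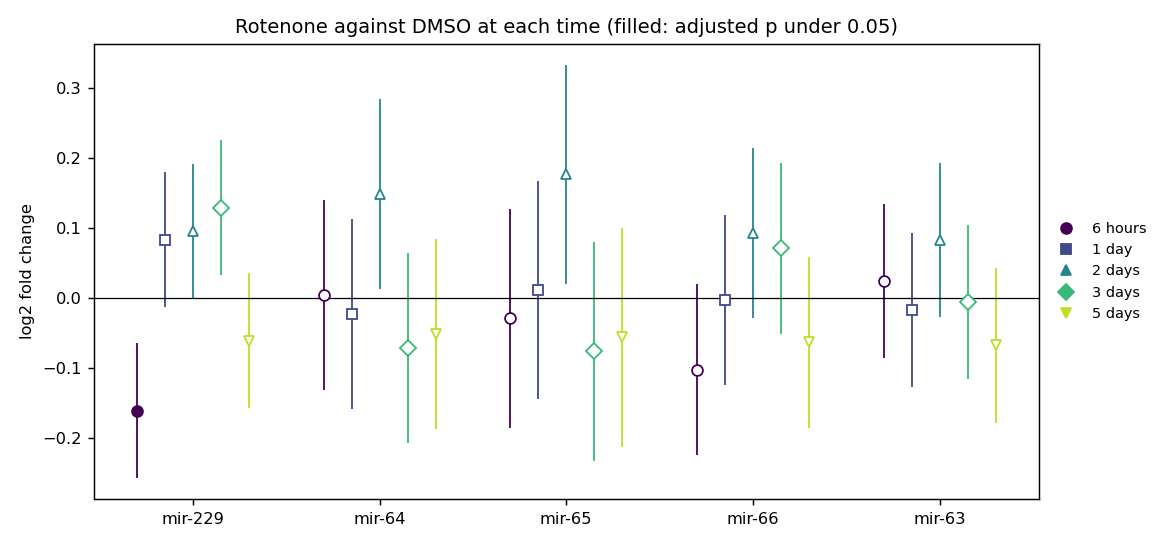
Log2 fold change of rotenone against DMSO for each hairpin at 5 times (edgeR, with 95% intervals), where filled symbols mark an adjusted p below 0.05. mir-229 at 6 hours, at -0.16, was the 1 filled symbol, and mir-229 lay above 0 at 1, 2 and 3 days and below it at 5 days.

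An F-test of edgeR for a change between the 5 times in rotenone against DMSO called 45.1% of all hairpins. Of the members it called mir-229 alone (adjusted p = 0.00173). Its log2 fold changes ran -0.16 at 6 hours, 0.08 at 1 day, 0.10 at 2 days, 0.13 at 3 days and -0.06 at 5 days. With total counts, without the filter, or without DMSO library 2 at 1 day this difference was no longer called, and DESeq2 called it (adjusted p = 0.00125). mir-63, mir-64, mir-65 and mir-66 had adjusted p-values of 0.206 to 0.487 in the same edgeR test. At each single time the treatments were sequenced on different lanes, so that treatment and lane cannot be told apart there. Lane 8 held DMSO at 6 hours and rotenone at 1 day and 3 days. The lane 8 group had the higher mean of mir-229 at each of these times. Neither treatment was on lane 8 at 2 or 5 days. The change of sign after 6 hours therefore cannot be told apart from lane either.

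Averaged over the 5 times, 0 of 5 members were called by edgeR or DESeq2, 0 had an unadjusted p below 0.05, and 22.3% of all hairpins were called. The 95% interval of the mean log2 fold change was -0.046 to 0.0528 for mir-63, -0.0592 to 0.0624 for mir-64, -0.0646 to 0.0754 for mir-65, -0.0556 to 0.0536 for mir-66 and -0.0261 to 0.0604 for mir-229. In an additive fit of treatment, time and lane, which the 4 lanes allow over all times together, mir-229 stood at -0.01 ± 0.026, and the edgeR adjusted p-values of the 5 members lay between 0.763 and 0.975. Without lane the same fit gave mir-229 0.02 ± 0.031.

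Against H2O 0 of 5 members were called by edgeR or DESeq2 for rotenone at 1 day, where 11.9% of all hairpins were called and 1 member had an unadjusted p below 0.05, or at 5 days, where 1.04% were called and 0 members had one. mir-229 was this member at 1 day, with 12860, 13150 and 13240 CPM in rotenone, against 11960, 12040 and 12570 CPM in H2O (log2 fold change 0.10 ± 0.048, edgeR adjusted p = 0.186). Its groups did not overlap, which held for 3 members and for 32.1% of all hairpins. With total counts mir-63 was called lower in rotenone than in H2O at 1 day (-0.17, edgeR adjusted p = 0.0497). Between the vehicles, DMSO against H2O, edgeR called 0% of all hairpins at 1 day and 0% at 5 days. At an unadjusted p below 0.05 there were 14 hairpins at 1 day and 8 at 5 days, none of them a member, and DESeq2 called 1 hairpin at 1 day and 0 at 5 days. The 5 members' estimates for DMSO against H2O lay between -0.09 and 0.08 at 1 day and between -0.02 and 0.05 at 5 days.

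Among the time comparisons fitted, which did not include 5 days against 6 hours, the largest estimate for a member was a log2 fold change of 0.60, for mir-64 at 5 days against 2 days in DMSO, and the largest for rotenone against DMSO was 0.18, for mir-65 at 2 days. From 6 hours to 1 day mir-66, the last hairpin of the cluster, rose in both treatments. Rotenone was on lane 1 at 6 hours and lane 8 at 1 day, and DMSO on lane 8 at 6 hours and lane 2 at 1 day. Time and lane therefore cannot be told apart over this step. In rotenone it had 4118, 4132 and 4328 CPM at 1 day, against 2939, 3019 and 3232 CPM at 6 hours (log2 fold change 0.45 ± 0.060, edgeR adjusted p = 3.63e-08). In DMSO it had 4093, 4110 and 4399 CPM at 1 day, against 3177, 3398 and 3293 CPM at 6 hours (0.35 ± 0.060, edgeR adjusted p = 3.03e-06). Neither pair of groups overlapped, as for 66.3% of all hairpins in rotenone and 69.9% in DMSO. In rotenone 2 of 5 members were called, both higher at 1 day, where 63.7% of all hairpins were called, and in DMSO 1 of 5, where 65.3% were.

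The second in rotenone was mir-229, at 12860, 13150 and 13240 CPM at 1 day, against 11690, 11240 and 11980 CPM at 6 hours (0.17 ± 0.048, edgeR adjusted p = 0.00235). The higher group was the one on lane 8, so this rise cannot be told apart from lane. In DMSO mir-229 overlapped between these times (-0.08 ± 0.048, edgeR adjusted p = 0.162). With total counts the estimate in rotenone was -0.01, while the median of all hairpins moved by -0.179 on the log2 scale with that scaling, and without the filter or with only these 2 groups fitted mir-229 was not called. mir-63, mir-64 and mir-65 were not called between 6 hours and 1 day in either treatment, with estimates of 0.00 to 0.15. With total counts mir-63 was called lower at 1 day in rotenone (-0.18, edgeR adjusted p = 0.00628). Over the same step all 8 hairpins of the mir-35 family passed the threshold in rotenone and in DMSO, each higher at 1 day, and their sum was 111200 ± 3000 CPM in rotenone and 119100 ± 7120 CPM in DMSO at 1 day, against 19350 ± 4030 CPM in rotenone and 23470 ± 1410 CPM in DMSO at 6 hours. The part of embryos in the levels of the family was not tested.

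Between 1 and 5 days the members parted. mir-63, mir-64 and mir-65 were higher at 5 days in rotenone, DMSO and H2O, and mir-229 was lower in all 3. In rotenone 4 of 5 members were called, 3 higher and 1 lower, against 59.1% of all hairpins. In DMSO 4 of 5 were called, also 3 higher and 1 lower, against 63.2%, and in H2O 5 of 5, with 4 higher and 1 lower, against 57.5%. These shares of all hairpins are high, so the count of members called says little about the family. Groups at 1 and 5 days did not overlap for 63.2% of all hairpins in rotenone, 62.7% in DMSO and 62.2% in H2O. The median log2 fold change of the 5 members was 0.33 in rotenone, 0.39 in DMSO and 0.29 in H2O, and that of all 193 hairpins -0.14 in rotenone, -0.04 in DMSO and 0.02 in H2O.

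mir-229 had 9294, 9299 and 9924 CPM in rotenone at 5 days, against 12860, 13150 and 13240 CPM at 1 day. In DMSO it had 9963, 10060 and 9728 CPM at 5 days, against 12880, 11680 and 12480 CPM at 1 day. In H2O it had 9814, 10440 and 9985 CPM at 5 days, against 11960, 12040 and 12570 CPM at 1 day. Every library at 5 days lay below every library at 1 day in the same treatment, and most hairpins likewise had groups that did not overlap. The log2 fold changes were -0.46 ± 0.048 in rotenone, -0.32 ± 0.048 in DMSO and -0.27 ± 0.048 in H2O (edgeR adjusted p at most 4.56e-06).

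mir-64, which lies next to mir-229, went the other way. It had 31520, 31560 and 30850 CPM in rotenone at 5 days, against 25490, 23590 and 22660 CPM at 1 day. In DMSO the values were 33350, 32860 and 31110 CPM at 5 days, against 26610, 23490 and 22780 CPM at 1 day, and in H2O 31670, 34630 and 31150 CPM at 5 days, against 26440, 26240 and 24170 CPM at 1 day. No pair of groups overlapped, as for most hairpins. The log2 fold changes were 0.39 ± 0.067 in rotenone, 0.42 ± 0.067 in DMSO and 0.34 ± 0.067 in H2O. mir-65 rose by 0.33 ± 0.077 in rotenone, 0.39 ± 0.077 in DMSO and 0.29 ± 0.077 in H2O, also without overlap. The edgeR adjusted p-values of mir-64 and mir-65 lay between 1.07e-06 and 0.00145. With total counts, which moved the median of all hairpins by -0.213 in DMSO and -0.208 in H2O, mir-65 was not called in DMSO (0.18, adjusted p = 0.0548), and neither mir-64 (0.13, adjusted p = 0.128) nor mir-65 (0.08, adjusted p = 0.422) was called in H2O, again in edgeR.

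mir-63, the member on chromosome X, had the largest rise of the 5. It had 1162, 1215 and 1067 CPM in rotenone at 5 days, against 799.4, 813.7 and 755.1 CPM at 1 day. The corresponding levels in DMSO were 1206, 1212 and 1191 CPM at 5 days, against 789.6, 798.6 and 809.4 CPM at 1 day, and in H2O 1168, 1128 and 1187 CPM at 5 days, against 852.7, 821.4 and 842.7 CPM at 1 day. The groups did not overlap in any treatment, as for most hairpins (log2 fold changes 0.54 ± 0.055 in rotenone, 0.59 ± 0.055 in DMSO and 0.47 ± 0.055 in H2O, edgeR adjusted p at most 1.36e-09). mir-66 had the smallest estimates over this span. Its log2 fold change was 0.02 ± 0.060 in rotenone and 0.08 ± 0.060 in DMSO, and in H2O it was called at 0.17 ± 0.060 (edgeR adjusted p = 0.016), a call lost with total counts (-0.04), without the filter (0.10), with only these 2 groups fitted (0.15) and without H2O library 2 at 1 day (0.16) or H2O library 3 at 5 days (0.10). In rotenone mir-66 was called when only the 2 groups were fitted (0.13, edgeR adjusted p = 0.0405).

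**Figure D3:**
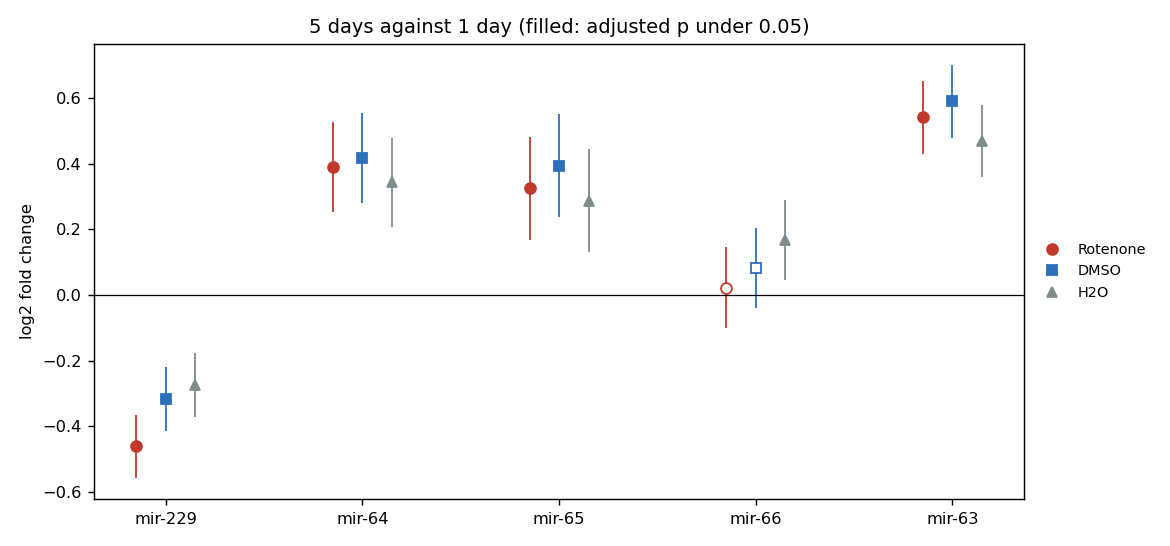
Log2 fold change of 5 days against 1 day for each hairpin in rotenone, DMSO and H2O (edgeR, with 95% intervals), where filled symbols mark an adjusted p below 0.05. mir-229 lay at -0.46 to -0.27, mir-64 and mir-65 at 0.29 to 0.42, mir-63 at 0.47 to 0.59, and mir-66 at 0.02 to 0.17.

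The change between 1 and 5 days was set against itself between treatments. Its difference, rotenone minus DMSO, was called for 8.81% of all hairpins and for 0 of 5 members in edgeR and in DESeq2, with 1 member at an unadjusted p below 0.05. That member was mir-229 (-0.14 ± 0.068 on the log2 scale, edgeR adjusted p = 0.159). The difference DMSO minus H2O was called for 0% of all hairpins by edgeR, which found 8 hairpins but 0 members at an unadjusted p below 0.05, and for 1 hairpin and 0 members by DESeq2. Over the same span the muscle marker mir-1 stood at 347.9 ± 33.8 CPM in rotenone, 351.2 ± 56.1 CPM in DMSO and 346.7 ± 51.6 CPM in H2O at 5 days, against 631.5 ± 22.1 CPM in rotenone, 626.8 ± 34.5 CPM in DMSO and 624.6 ± 49.3 CPM in H2O at 1 day. The intestinal marker mir-60 lay between 1768 and 1867 CPM at 5 days and between 1662 and 1829 CPM at 1 day as group means. The 4 neuronal markers summed to 110.1 to 118.2 CPM at 5 days and to 166.5 to 179.7 CPM at 1 day, again as group means. Of the 4, 3 were called lower in each treatment. mir-791 was called higher in rotenone (log2 fold change 0.86 ± 0.168) and was not called in DMSO or H2O. The glial marker mir-228 stood at 19520 ± 2400 CPM in rotenone, 21940 ± 1550 CPM in DMSO and 24490 ± 2730 CPM in H2O at 5 days, against 27420 ± 1660 CPM in rotenone, 26200 ± 2310 CPM in DMSO and 25160 ± 1260 CPM in H2O at 1 day. It was called lower in rotenone (log2 fold change -0.49 ± 0.105) and DMSO (-0.26 ± 0.105) and not in H2O. The mir-35 family summed to 105400 ± 2030 CPM in rotenone, 108700 ± 2300 CPM in DMSO and 102000 ± 8480 CPM in H2O at 5 days, against 111200 ± 3000 CPM in rotenone, 119100 ± 7120 CPM in DMSO and 113100 ± 3300 CPM in H2O at 1 day. Of its 8 hairpins, 3 were called lower in rotenone, 6 in DMSO and 6 in H2O, and 0 higher in any treatment. The part of the makeup of the worm in the changes of the family was not tested.

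The groups at 1 and 5 days of a treatment were on different lanes, but 2 pairs of later and earlier groups shared a lane. On lane 8, rotenone at 3 days against 1 day, 42.5% of all hairpins and 2 of 5 members were called. The groups did not overlap for 50.8% of all hairpins. mir-229 had 9992, 10280 and 10440 CPM at 3 days, against 12860, 13150 and 13240 CPM at 1 day (log2 fold change -0.35 ± 0.048, edgeR adjusted p = 6.9e-08), without overlap. mir-63 had 1008, 981.1 and 980.8 CPM at 3 days, against 799.4, 813.7 and 755.1 CPM at 1 day (0.33 ± 0.055, edgeR adjusted p = 3.92e-06), also without overlap. mir-64, mir-65 and mir-66 lay between -0.04 and 0.03 and overlapped.

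On lane 1, DMSO at 5 days against 2 days, 67.9% of all hairpins and 5 of 5 members were called. The groups did not overlap for 66.8% of all hairpins. mir-64 had 33350, 32860 and 31110 CPM at 5 days, against 23250, 19890 and 20950 CPM at 2 days (0.60 ± 0.067, edgeR adjusted p = 4.49e-10). mir-65 rose by 0.52 ± 0.077 and mir-63 by 0.47 ± 0.055, and neither overlapped. The estimates of mir-66 (0.14 ± 0.060, edgeR adjusted p = 0.0387, groups overlapping) and mir-229 (-0.12 ± 0.048, edgeR adjusted p = 0.0287) passed by little. mir-66 was lost with DESeq2's size factors (0.10), with DESeq2 (0.10), with total counts (-0.14), without the filter (0.06), with only these groups fitted (0.16) and without DMSO library 1 or 3 at 2 days or DMSO library 2 or 3 at 5 days (0.08 to 0.15). mir-229 was lost with only these groups fitted (-0.10) and without DMSO library 3 at 2 days or DMSO library 1 or 3 at 5 days (-0.12 to -0.09). The 2 lanes held different treatments and different spans of time, and no test was made between them.

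Since 4 members lie in a row in 1 gene, their counts were also set against each other within each library, where no scaling between libraries enters. The ratios were chosen after the values had been seen. mir-229 had 0.2948, 0.2946 and 0.3216 counts per count of mir-64 in rotenone at 5 days, against 0.5045, 0.5572 and 0.5845 at 1 day. In DMSO the ratio was 0.2987, 0.306 and 0.3127 at 5 days, against 0.4842, 0.4971 and 0.5478 at 1 day, and in H2O 0.3099, 0.3015 and 0.3206 at 5 days, against 0.4526, 0.4588 and 0.5199 at 1 day. The 9 libraries at 5 days held 0.2946 to 0.3216 and stood clear of the 9 at 1 day.

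The difference in the log2 ratio of mir-229 to mir-64, 5 days minus 1 day, was -0.852 in rotenone, -0.735 in DMSO and -0.617 in H2O. That of mir-66 to mir-64 was -0.37 in rotenone, -0.339 in DMSO and -0.177 in H2O, and that of mir-63 to mir-64 was 0.148 in rotenone, 0.17 in DMSO and 0.126 in H2O. The groups at 1 and 5 days overlapped for mir-66 to mir-64 in DMSO and H2O, and for mir-63 to mir-64 in H2O. No test is given for these ratios, since they were picked from the values they describe. The groups at 1 and 5 days were on different lanes, and within a lane 1 of the 3 ratios kept its direction without overlap in both pairs of groups. This was mir-229 to mir-64, which differed by -0.363 on the log2 scale within lane 8, rotenone at 3 days against 1 day, and by -0.722 within lane 1, DMSO at 5 days against 2 days. The log2 ratio of mir-66 to mir-64 differed by 0.0157 within lane 8, where the groups overlapped, and by -0.468 within lane 1, where they did not. For mir-63 to mir-64 the difference was 0.318 within lane 8, without overlap, and -0.132 within lane 1, with overlap and opposite to the sign between 1 and 5 days. In rotenone the mean ratio of mir-229 to mir-64 was 0.513 at 6 hours, 0.5487 at 1 day, 0.4863 at 2 days, 0.426 at 3 days and 0.3037 at 5 days. In DMSO it was 0.5753 at 6 hours, 0.5097 at 1 day, 0.5059 at 2 days, 0.3723 at 3 days and 0.3058 at 5 days.

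**Figure D4:**
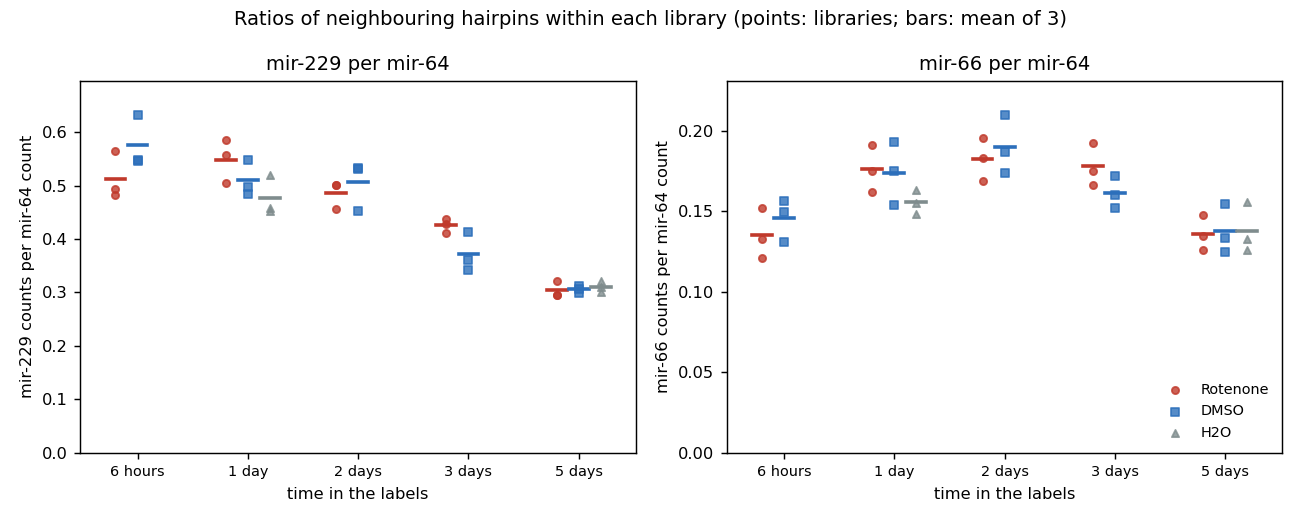
Counts of mir-229 and of mir-66 per count of mir-64 within each library, by time, with rotenone, DMSO and H2O side by side and bars at the mean of 3 libraries. The ratio of mir-229 to mir-64 fell to 0.2946 to 0.3216 in the 9 libraries at 5 days, and the group means of mir-66 to mir-64 were higher at 1, 2 and 3 days than at 5 days.

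The makeup of the family was also described by share. Of the family's counts mir-229 held 11.7% ± 0.572 in rotenone and 11.8% ± 0.256 in DMSO at 5 days, and 18.8% ± 0.97 in rotenone and 17.9% ± 0.938 in DMSO at 1 day (SD, n = 3). mir-64 held 38.7% ± 0.0874 in rotenone and 38.6% ± 0.0493 in DMSO at 5 days. mir-65 held 42.9% in both at that time. The family's share of all counts, the share of each member and the ratio of mir-64 to mir-65 were set between rotenone and DMSO at each time in 35 exact two-sided permutation tests, which cannot go below 0.1, and no adjusted p was below 0.921. At 3 days the family's share of all counts, 6.43% ± 0.101 with rotenone and 7.02% ± 0.399 with DMSO, and the share of mir-64 in it, 36.1% ± 0.206 with rotenone and 37.1% ± 0.419 with DMSO, did not overlap. All other shares and ratios overlapped at every time. The sum of the mir-35 family was 149000 ± 16200 CPM with rotenone and 125200 ± 1120 CPM with DMSO at 3 days, and its part in these shares was not tested.

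Across the 12 group means of log2 CPM the members did not move as 1 unit. mir-64 and mir-65 had a Pearson correlation of 0.984 (Spearman 0.881). mir-63 correlated with both, at 0.864 with mir-64 and 0.867 with mir-65, although it lies on another chromosome. mir-229 was inversely related to all others, with -0.867 for mir-63, -0.585 for mir-64, -0.563 for mir-65 and -0.444 for mir-66. These values describe 12 groups that share times and lanes and carry no p.

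By the same measure the hairpins most like each member were looked up among all tested hairpins. For mir-63 they were mir-239a (Pearson 0.987, Spearman 0.972), mir-77 (0.972, Spearman 0.944) and mir-80 (0.969, Spearman 0.916). mir-239a and mir-80 belong to the other hairpins linked to stress or lifespan. For mir-64 they were mir-65, mir-253 (0.983, Spearman 0.874) and mir-249 (0.914, Spearman 0.58). For mir-65 they were mir-64, mir-253 (0.975, Spearman 0.804) and mir-80 (0.896, Spearman 0.748). mir-66 was most like mir-5546 (0.961), mir-2209a (0.96) and mir-796 (0.958), although mir-5546 averaged 7.394 CPM and mir-796 2.534 CPM. By rank these likenesses of mir-66 were lower, with Spearman 0.65 for mir-5546, 0.755 for mir-2209a and 0.664 for mir-796. mir-229 was most like mir-237 (0.904, Spearman 0.832), a relative of the developmental timing microRNA lin-4, mir-2212 (0.882, Spearman 0.874) and mir-1830 (0.875, Spearman 0.825).

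6 other hairpins have been linked to stress or lifespan in C. elegans: mir-246, mir-239b, mir-239a, mir-80, mir-71 and mir-34. For rotenone against DMSO, 0 of the 6 were called at 6 hours, 2 at 1 day (both higher), 6 at 2 days (all higher), 2 at 3 days (1 higher and 1 lower) and 2 at 5 days (both lower), and 0 were called for the mean over the 5 times. At 2 days, where 42.5% of all hairpins and 0 of the 5 members of the family were called, their log2 fold changes ran from 0.16 for mir-80 to 0.25 for mir-239b. The estimate of mir-65 (0.18) lay within that range and that of mir-64 (0.15) just below it. Whether mir-64 and mir-65 differed from these 6 was not tested. At 5 days, where 1.04% of all hairpins were called, mir-34 stood at -0.25 and mir-239a at -0.26. Between 1 and 5 days 5 of the 6 rose and 0 fell in each treatment, where 59.1% of all hairpins were called in rotenone, 63.2% in DMSO and 57.5% in H2O. The median log2 fold change of the 6 was 0.77 in rotenone, 0.97 in DMSO and 1.01 in H2O, larger than the median of the family in each treatment. mir-34 rose by 0.93 ± 0.052 and mir-239a by 1.56 ± 0.064 in rotenone, while mir-71 was not called there (-0.07 ± 0.064).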

How the data were processed

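Per the labels' protocols, libraries were made from total RNA with a TruSeq kit for small RNA. The authors deposited raw read counts per hairpin, not split into arms, and per the submitters' processing notes used SAMtools 1.3.1-9, BWA 0.7.12-r1039, Trimmomatic 0.36 and bcl2fastq 1.8.4. No source used here gives the build, the microRNA annotation or the counting of reads with several matches. Groups came from the labels of treatment and time, and the lanes from the library descriptions.

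From the 250 hairpins, 241 had a count and 193 passed filterByExpr (minimum count 10, by group). In R 4.3.3, edgeR 4.0.16 fitted 1 quasi-likelihood model to all 36 libraries with a mean per group, TMM scaling (factors 0.854 to 1.16), 12.6 prior and 24 residual degrees of freedom, and a biological coefficient of variation of 0.0678. P-values were adjusted by Benjamini-Hochberg over all tested hairpins in each of 20 comparisons, with a threshold of 0.05. Intervals are 95% intervals from the standard error and these degrees of freedom. CPM used the TMM factors and log2 CPM a prior count of 2. The tests were tried on simulated counts. No libraries of a group were alike within sampling noise.

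All 5 members were named in every comparison, and the 3 hairpins most like each by Pearson correlation. The members, lists and tests were chosen with earlier results of these data known. Alternatives were DESeq2 1.42.0, its size factors, total counts, no filter, only the groups compared, the replicate number as a block, leaving out each library, and an additive fit with lane. An additive fit without lane and the ratios between members were added after the values had been seen.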

Additional observations from a re-analysis of the deposited data

Results flagged for a closer look

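cel-mir-229 was listed because the difference between rotenone and DMSO changed between the 5 times in the F-test of edgeR (adjusted p = 0.00173). Its log2 fold changes were -0.16 at 6 hours, 0.08 at 1 day, 0.10 at 2 days, 0.13 at 3 days and -0.06 at 5 days, and the libraries of the groups did not overlap at 6 hours, 2 days and 3 days. Each of these comparisons set 1 lane against another, and treatment and lane cannot be told apart at a single time. The higher group was the one on lane 8 at 6 hours, 1 day and 3 days. The change of sign therefore cannot be told apart from lane.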

How the results depend on the processing

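Directions and calls between 1 and 5 days held for mir-63 and mir-229 in each treatment under every alternative tried. The rotenone call at 6 hours did not: 0 members were called with DESeq2's size factors, total counts, no filter or only the groups compared, and 0 to 1 with 1 library left out. At 2 days 2 members were called with the replicate number as a block (mir-64 and mir-65), 1 with DESeq2, and 0 to 2 with 1 library left out. For the difference between times the count was 0 with total counts, 0 without the filter, and 0 to 1 with 1 library left out. For 1 day against 6 hours in rotenone it was 1 without the filter and 1 with only the groups compared. For 5 days against 2 days in DMSO it was 3 with only the groups compared and 3 to 5 with 1 library left out. With total counts 1 member was called for rotenone against H2O at 1 day and 2 for 5 days against 1 day in H2O. Total counts also turned round 4 estimates that were called with 1 or both scalings, and 18 that were called with neither. The 4 were these: for 1 day against 6 hours in rotenone mir-63 stood at -0.18 (edgeR adjusted p = 0.00628) and mir-229 at -0.0137, for 5 days against 1 day in H2O mir-66 at -0.0421, and for 5 days against 2 days in DMSO mir-66 at -0.14. This scaling moved the median of all hairpins by -0.179 for 1 day against 6 hours in rotenone, by -0.273 for 5 days against 2 days in DMSO, by -0.1 in rotenone, -0.213 in DMSO and -0.208 in H2O for 5 days against 1 day, and by 0.112 for rotenone minus DMSO in that span. Apart from these medians the causes were not tested. Leaving out 1 library kept the log2 ratio of mir-229 to mir-64, 5 days minus 1 day and averaged over the 3 treatments (-0.735), between -0.754 and -0.714.

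Across all tested hairpins, replicate numbers did not pair the libraries. Over 198 same-numbered pairs the deviations correlated at -0.289 to 0.322 (median -0.01), and no comparison had every pair above 0.1. The block changed no other call of a member. As a hint from the data, library 1 had the highest mir-64 in 10 of 12 groups and the highest mir-65 in 8 of 12. Library 3 had the highest level in 0 of 12 groups for either hairpin. Whether replicate numbers pair the libraries for mir-64 and mir-65 alone was not tested. Standard errors of 0.0477 to 0.0774 (log2) for a pair of groups limit what could be detected.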
